A study of Mus musculus with 13 samples.

Results

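The genes of neurotrophin and GDNF family signalling described here are 9 in number: the ligand genes Bdnf, Ntf3, Gdnf and Nrtn, the co-receptor genes Gfra1 and Gfra2, and the receptor genes Ret, Ntrk3 and Ngfr. They were taken by symbol from a table of 55487 gene IDs and followed through 6 RNA-seq libraries. Of these, 3 came from pacemaker cells (PC) of the sinoatrial node, the cells that set the heartbeat, and 3 from right atrial cardiomyocytes (RACM), the working muscle beside the node. Both were sorted by flow cytometry from neonatal mouse hearts of the genotype Hcn4-GFP/Myh6-mCherry, in which GFP marks cells with an active Hcn4 gene and mCherry is a reporter named for Myh6, a gene of heart muscle myosin. For each biological replicate, tissue from where the node meets the right atrium was pooled from 8 to 10 hearts. The titles number the libraries p0, p2 and p4 in both cell types, and the labels do not say what the number stands for. The headers name the alignment files RedGreen for PC and Red for RACM.

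Neurotrophins are secreted proteins that keep neurons alive and guide their axons. Each binds a kinase receptor of the Trk family (BDNF binds TrkB and neurotrophin-3 binds TrkC, the product of Ntrk3), and all bind the p75 receptor encoded by Ngfr. Ligands of the GDNF family bind co-receptors that are anchored to the membrane by a lipid, and the pair then engages the kinase RET. GDNF prefers the co-receptor GFRA1, neurturin (Nrtn) GFRA2, artemin GFRA3 and persephin GFRA4. In mice, neurturin and GFRA2 are known to be needed for the cholinergic nerves of the heart, and neurotrophin-3 with TrkC for normal heart development.

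The libraries held between 14141151 and 22290996 counts each. Levels are CPM, counts scaled to a common library total after TMM, a method that evens out composition between libraries, and are per kilobase of exon where different genes are compared. Where 3 values of a cell type are listed, they belong to the libraries p0, p2 and p4 in that order. All 10 markers of pacemaker cells were higher in PC and 5 of 8 markers of working atrial muscle were lower, with none higher (edgeR quasi-likelihood test, adjusted p below 0.05, as in all calls below). Hcn4 and Myh6 are on the marker lists and their reporters were part of the mice, so they are no findings. Of 10 macrophage markers 8 were lower in PC, with summed levels from 9.56 to 54.5 CPM in PC and from 176 to 827 CPM in RACM. Of 10 fibroblast markers 3 were lower, with sums from 951 to 2324 CPM in PC and from 1877 to 11485 CPM in RACM. In bulk samples such as these, fewer cells of a type and less RNA per cell cannot be told apart.

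Gfra2 was the member that changed. This gene of the neurturin co-receptor (chromosome 14 from 70890120 to 70979838 in mm10, plus strand) stood at 90.2, 101.6 and 97.2 CPM in PC, against 4.08, 9.27 and 16.6 CPM in RACM. Every PC library thus lay far above every RACM library, and the PC libraries were close to each other. The mean was 96.3 ± 5.74 CPM in PC, against 9.97 ± 6.27 CPM in RACM (SD, n = 3 each), a log2 fold change of 3.26 ± 0.42 (SE; edgeR adjusted p = 0.00277). No other gene overlaps its exons. Among the 18015 genes tested it ranked 154th by log2 fold change and 176th by p.

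The difference in Gfra2 was seen at each library number, with a log2 ratio of PC to RACM of 4.47 at p0, 3.45 at p2 and 2.55 at p4. In RACM the level was 4.52% of that in PC at p0, 9.13% at p2 and 17.0% at p4. The summed pacemaker cell markers in RACM did not follow the same order, at 5.70%, 6.51% and 4.78% of their PC sums. Summed fibroblast markers in RACM stood at 1877, 4098 and 11485 CPM in p0, p2 and p4 and summed macrophage markers at 176, 470 and 827 CPM. Epicardial markers, of the outer layer of the heart, summed to 13.7, 33.9 and 91.5 CPM in these libraries. Smooth muscle and pericyte markers summed to 377, 432 and 772 CPM and endothelial markers to 117, 115 and 174 CPM. Schwann cell and glia markers went the other way, at 79.3, 78.3 and 60.0 CPM. Whether cells of these types contribute Gfra2 to the RACM libraries was not tested. The log2 fold change was 3.84 without RACM p4 and 2.89 without RACM p0, and the call held in each of the 14 other settings tried (adjusted p from 1.28e-14 to 0.0189).

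Of the 9 members, 6 passed the filter on low counts and were tested, and 1 was called. Over all genes tested 7.27% were called, 3.69% higher and 3.57% lower in PC. Bdnf, Gdnf and Ret did not pass the filter. With no filter 1 member was higher and 1, Ntrk3, lower, against 7.07% of all genes called, 3.18% higher and 3.89% lower. With DESeq2 the members called were the same 2, against 12.8% of all genes, 6.21% higher and 6.59% lower. Gfra2 was also the member called by limma-voom, which called 5.93% of all genes, 3.45% higher and 2.48% lower. Its libraries were separated by cell type, as were those of 26.9% of genes tested, 13.5% with PC above.

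**Figure D1:**
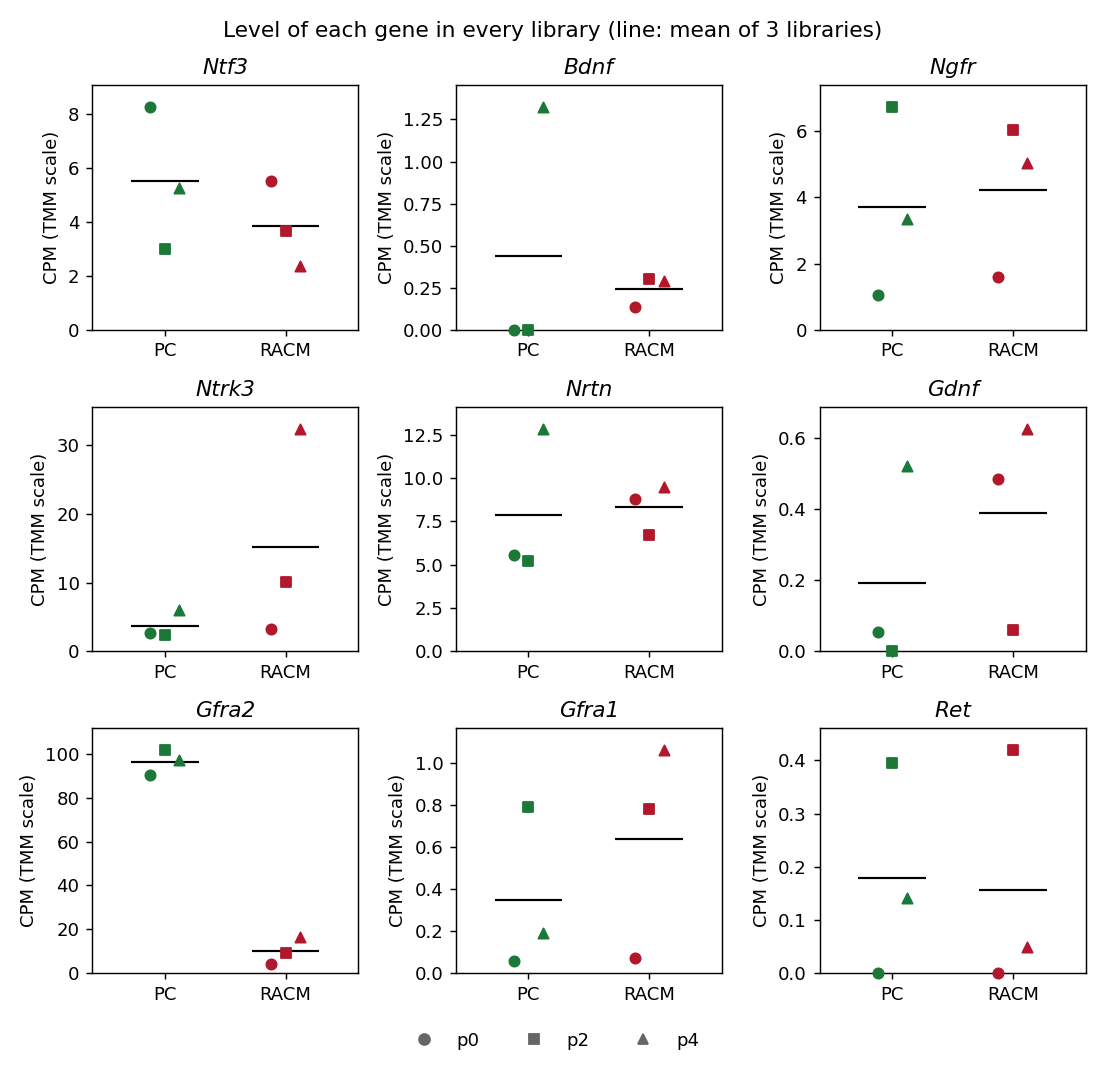
Level of each of the 9 genes in CPM (linear axis from 0, a scale of its own in each panel) in the 3 PC libraries (green) and the 3 RACM libraries (red), with the symbol giving the library number and the line the mean. Gfra2 lies between 90.2 and 101.6 CPM in PC and between 4.08 and 16.6 CPM in RACM, while the libraries of the 2 cell types overlap for the other genes.

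Nrtn encodes neurturin, the preferred ligand of GFRA2 (chromosome 17 from 56751325 to 56757530, minus strand). It was at 5.58, 5.20 and 12.9 CPM in PC, against 8.77, 6.70 and 9.48 CPM in RACM. The groups overlapped, with PC p4 the highest library and PC p2 the lowest. The log2 fold change was -0.08 ± 0.42 (edgeR adjusted p = 0.944), and its sign turned when PC p0, PC p2 or RACM p4 was left out (0.12, 0.15 and 0.03). On summed counts the ratio of PC to RACM was 0.974, with a 95% interval from 0.853 to 1.11 that covers counting error only.

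Per kilobase of exon, Nrtn was the highest of the 9 genes in RACM and second in PC. Its level was 7.70 ± 4.21 CPM per kilobase in PC and 8.13 ± 1.41 in RACM (SD, n = 3 each). Gfra2 stood at 27.2 ± 1.62 CPM per kilobase in PC and 2.82 ± 1.77 in RACM. The ratio of Gfra2 to Nrtn per kilobase was therefore 4.68, 5.64 and 2.19 in PC, against 0.134, 0.400 and 0.505 in RACM. Per kilobase, ligand message was above co-receptor message in each RACM library and below it in each PC library. In RACM this order depends on the exon length, which was 1023 bases for Nrtn and 3539 for Gfra2. Without that division Gfra2 was above Nrtn in RACM p2 (9.27 against 6.70 CPM) and p4 (16.6 against 9.48 CPM). In RACM p0 it stayed below (4.08 against 8.77 CPM).

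Gdnf, the gene of the founding ligand of the family (chromosome 15 from 7810846 to 7837575, plus strand), was barely counted. It had 1, 0 and 11 counts in PC, against 7, 1 and 13 counts in RACM. The ratio of summed counts, PC over RACM, was 0.523 with a counting interval from 0.235 to 1.11. Gfra1, its preferred co-receptor gene (chromosome 19 from 58235604 to 58455909, minus strand), had 1, 14 and 4 counts in PC, against 1, 13 and 22 counts in RACM. It passed the filter and was not called (log2 fold change -0.89 ± 1.12, edgeR adjusted p = 0.727). Its log2 fold change ranged from -2.31 without PC p2 to -0.31 without RACM p4, was -0.41 without PC p0 and -1.40 without RACM p0, and was -0.05 when the p4 library of each cell type was left out, with no call in any of these. Gm16277 on the opposite strand overlaps 7.60% of its exon sequence, where the counts cannot separate the genes.

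Ret encodes the kinase through which the co-receptors signal (chromosome 6 from 118151745 to 118197718, minus strand). Its counts were 0, 7 and 3 in PC, against 0, 7 and 1 in RACM. A count of 0 allows up to 3 counts, or 0.167 CPM in PC p0 and 0.207 CPM in RACM p0. Ret was the lowest of the 9 genes per kilobase in both cell types, at 0.0265 ± 0.0297 CPM per kilobase in PC and 0.0230 ± 0.0339 in RACM (SD, n = 3 each). The ratio of summed counts was 1.14 with a counting interval from 0.407 to 3.34, so a difference in Ret was not detectable at this depth.

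Other genes of the GDNF family were read from a list that also holds the remaining neurotrophin genes. Gfra4, the co-receptor gene for persephin, was at 9.48, 4.47 and 4.35 CPM in PC, against 0.553, 0.359 and 0.385 CPM in RACM. As for Gfra2, all PC libraries were above all RACM libraries, though at a level far lower. Its log2 fold change was 3.81 ± 0.57 (edgeR adjusted p = 0.00596), and Mir6973b on the same strand overlaps 3.70% of its exon sequence. Its ligand gene Pspn had 1 count in PC p0 and 1 in RACM p4 and none elsewhere. Artn, the gene of artemin, had 1 count in PC p0 and 24 in RACM p4 and none elsewhere, and its co-receptor gene Gfra3 had none in PC and 4 in RACM.

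Partners that can take part in GDNF family signalling without RET were present in both cell types. Ncam1, a neural adhesion molecule that can serve as a receptor for GDNF with GFRA1, was at 123, 101 and 80.5 CPM in PC, against 156, 129 and 107 CPM in RACM. It did not pass (log2 fold change -0.36 ± 0.21, edgeR adjusted p = 0.374). The heparan sulphate proteoglycan gene Sdc3, whose product binds several GDNF family ligands, was at 9.76, 7.41 and 17.8 CPM in PC, against 15.5, 32.8 and 59.4 CPM in RACM. It did not pass either (log2 fold change -1.62 ± 0.49, edgeR adjusted p = 0.0841), but passed with the replicate block (adjusted p = 0.0157), with DESeq2 (0.00605), with no filter (4.67e-04) and without RACM p0 (0.0240).

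**Figure D2:**
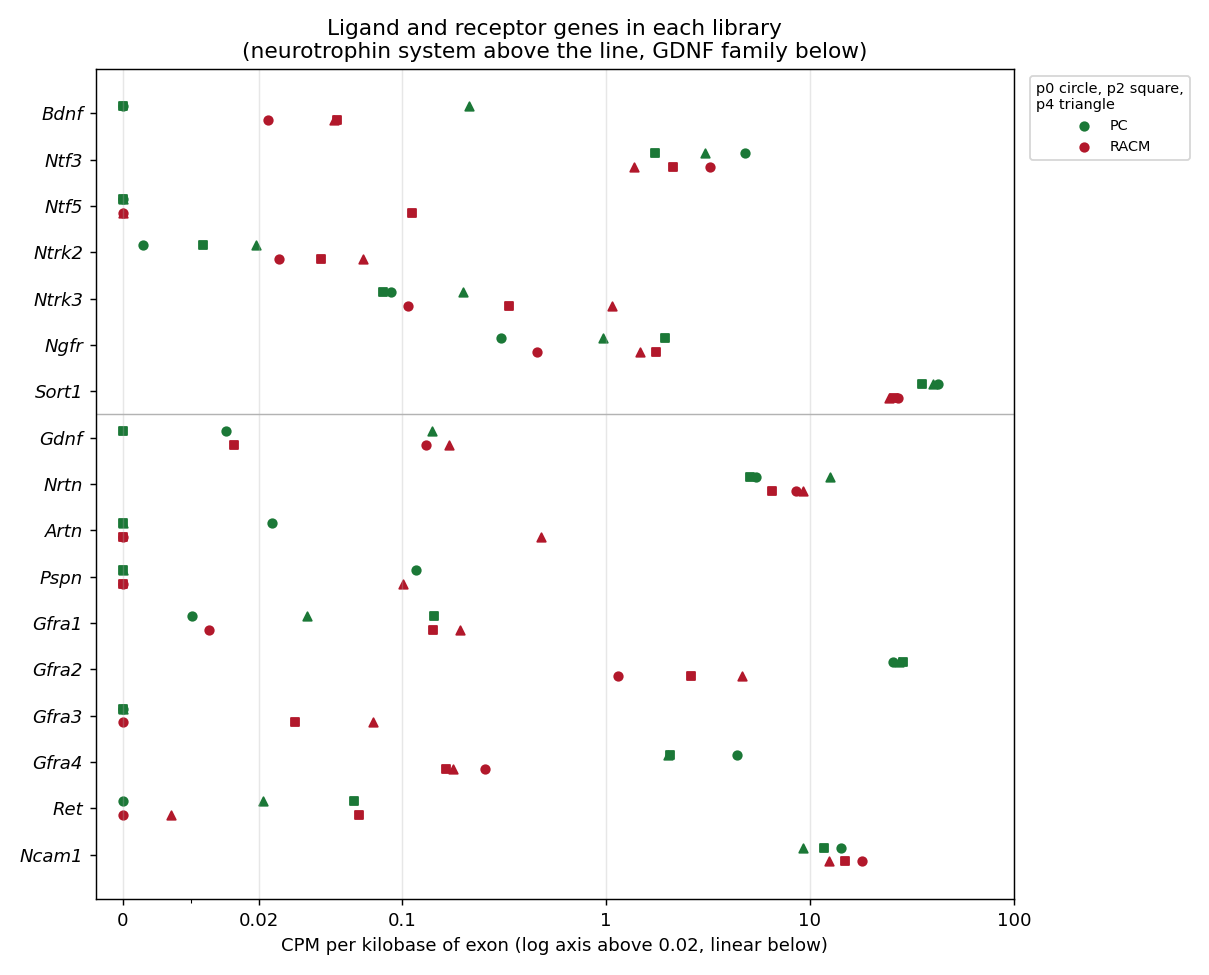
Level of 17 ligand and receptor genes in CPM per kilobase of exon in each library, on a log axis that is linear below 0.02, with PC in green above RACM in red for each gene. Gfra2 and Gfra4 are the 2 co-receptor genes whose PC libraries stand clear to the right of RACM, while Ret lies at 0.0619 or below in every library.

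Of the neurotrophin genes among the members, Ntf3 was counted better than Bdnf. It encodes neurotrophin-3 (chromosome 6 from 126101412 to 126166910, minus strand) and was at 8.25, 3.00 and 5.24 CPM in PC, against 5.53, 3.65 and 2.36 CPM in RACM. The groups overlapped, with PC p0 the highest library and RACM p4 the lowest. The mean was 5.50 ± 2.64 CPM in PC, against 3.84 ± 1.59 CPM in RACM (SD, n = 3 each), and the log2 fold change was 0.52 ± 0.51 (edgeR adjusted p = 0.640). It was 0.11 without PC p0, 0.26 without RACM p4, 0.82 without PC p2 and 0.87 without RACM p0. Bdnf, the gene of brain-derived neurotrophic factor (chromosome 2 from 109674700 to 109727007, plus strand), had 0, 0 and 28 counts in PC, against 2, 5 and 6 counts in RACM. All PC counts of Bdnf thus came from p4, and Gm45346 on the opposite strand overlaps 14.4% of its exon sequence.

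Ntrk3, the gene of TrkC (chromosome 7 from 78175959 to 78738012, minus strand), was at 2.68, 2.43 and 6.05 CPM in PC, against 3.25, 10.2 and 32.4 CPM in RACM. The groups overlapped, since PC p4 lay above RACM p0, and RACM p4 lay far above the rest. The mean was 3.72 ± 2.02 CPM in PC, against 15.3 ± 15.2 CPM in RACM (SD, n = 3 each). The log2 fold change of -2.04 ± 0.75 did not pass (edgeR adjusted p = 0.149). It passed with DESeq2 (adjusted p = 0.0227), with no filter (0.00425) and without RACM p0 (0.0375), while the log2 fold change was -0.85 when RACM p4 was left out and -1.42 when PC p4 was left out as well, with no call in either.

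The RACM library with most Ntrk3, p4, also had the highest fibroblast, macrophage, epicardial, endothelial, and smooth muscle and pericyte sums among the RACM libraries. It had the lowest sums of cardiomyocyte, Schwann cell and glia, and autonomic neuron markers. Beside the Ntrk3 levels of RACM p0, p2 and p4, fibroblast markers summed to 1877, 4098 and 11485 CPM. Epicardial markers summed to 13.7, 33.9 and 91.5 CPM and endothelial markers to 117, 115 and 174 CPM. Cardiomyocyte markers summed to 111936, 109548 and 79752 CPM. Markers of smooth muscle and pericytes were mixed, with 3 of 10 higher in PC (Myh11, Cnn1 and Cspg4), 2 lower (Pdgfrb and Notch3) and a median log2 fold change of -0.03. Their sums were 817, 537 and 801 CPM in PC, against 377, 432 and 772 CPM in RACM. Of these, Acta2 alone was at 482, 302 and 534 CPM in PC, against 82.3, 99.4 and 291 CPM in RACM. Pdgfrb rose over RACM p0, p2 and p4 (19.8, 49.4 and 73.1 CPM), as did Notch3 (8.29, 32.3 and 73.6 CPM). The 3 genes higher in PC did not rise in this order. In RACM Myh11 was at 1.73, 8.25 and 2.55 CPM, Cnn1 at 29.3, 27.3 and 27.6 CPM and Cspg4 at 19.8, 11.7 and 15.1 CPM. The part of these cell types in the level of Ntrk3 was not tested. Gene counts also do not tell the kinase form of TrkC from forms without the kinase.

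Ngfr encodes the p75 receptor (chromosome 11 from 95568818 to 95587735, minus strand). It was at 1.06, 6.73 and 3.35 CPM in PC, against 1.59, 6.04 and 5.05 CPM in RACM. In both cell types p0 was the lowest library and p2 the highest, and the groups overlapped. The log2 fold change was -0.19 ± 0.71 (edgeR adjusted p = 0.917), with a sign that turned without PC p0 (0.25) or RACM p2 (0.15). Ngfr is also a marker of Schwann cells and other glia. Sox10, a transcription factor that defines those cells, had 33 counts in PC and 12 in RACM, and Foxd3 had 0 in PC and 2 in RACM.

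Of the listed neurotrophin genes outside the members, Ntrk2, the gene of TrkB, had 1, 4 and 8 counts in PC, against 7, 13 and 26 counts in RACM. Ntf5, the gene of neurotrophin-4, had 0 counts in each PC library and 5 in RACM, all in p2. Both were too low to pass the filter.

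**Figure D3:**
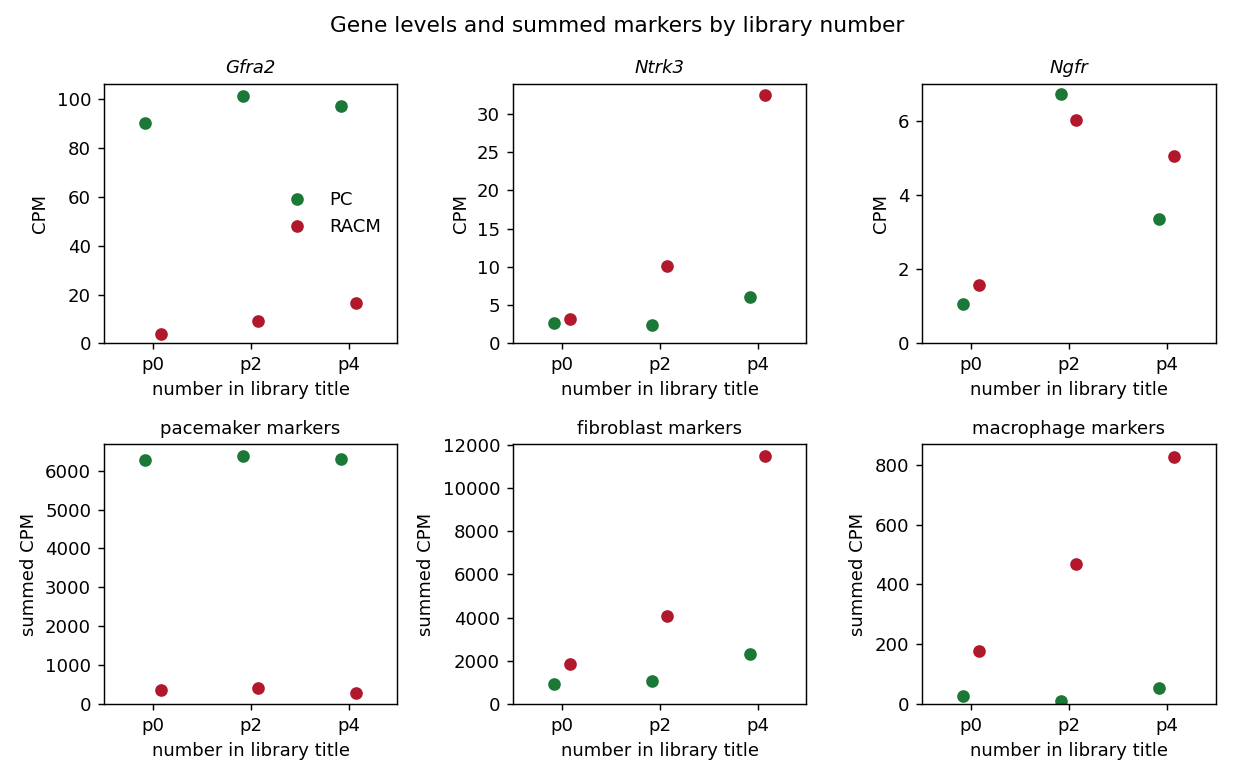
CPM of Gfra2, Ntrk3 and Ngfr (top) and summed CPM of pacemaker, fibroblast and macrophage markers (bottom) for PC (green) and RACM (red) by the number in the library title, on linear axes from 0. RACM p4 has the highest Ntrk3 (32.4 CPM), fibroblast sum (11485 CPM) and macrophage sum (827 CPM), while Gfra2 stays above 90 CPM in each PC library.

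Sortilin-type receptors, which bind precursor forms of neurotrophins together with p75, were also counted. Sort1, the gene of sortilin, was at 322, 267 and 305 CPM in PC, against 205, 196 and 185 CPM in RACM. The groups did not overlap, and its log2 fold change of 0.61 ± 0.15 passed narrowly (edgeR adjusted p = 0.0409). The call was lost with upper-quartile scaling (adjusted p = 0.0542), without both p4 libraries (0.178) and without any 1 of the 6 libraries (from 0.0564 to 0.155). Sorcs2 averaged 19.0 ± 8.82 CPM in PC, against 9.61 ± 3.93 CPM in RACM (SD, n = 3 each) and did not pass (edgeR adjusted p = 0.244), but passed with the replicate block (adjusted p = 0.0345). Genes on the opposite strand overlap 4.47% of the exon sequence of Sort1, 4.81% of Ncam1 and 7.73% of Sdc3. Sorcs1 had 14 counts in PC and 73 in RACM, with all PC libraries below all RACM libraries. Its log2 fold change of -2.46 ± 0.88 did not pass (edgeR adjusted p = 0.140), nor did it in any other setting. Sorcs3 did not pass the filter and had 2 counts in PC and 59 in RACM, of which 55 were in RACM p4.

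Gdf15, a distant relative of the GDNF family, had 18 counts in PC and 145 in RACM, at 0.295 ± 0.336 CPM in PC, against 2.83 ± 1.79 CPM in RACM (SD, n = 3 each). Its log2 fold change of -3.21 ± 1.05 did not pass (edgeR adjusted p = 0.110), though all PC libraries lay below all RACM libraries. It passed with DESeq2 (adjusted p = 0.0160) and with no filter (0.0226). Gfral, the gene of its receptor, had 0 counts in PC and 1 in RACM.

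**Figure D4:**
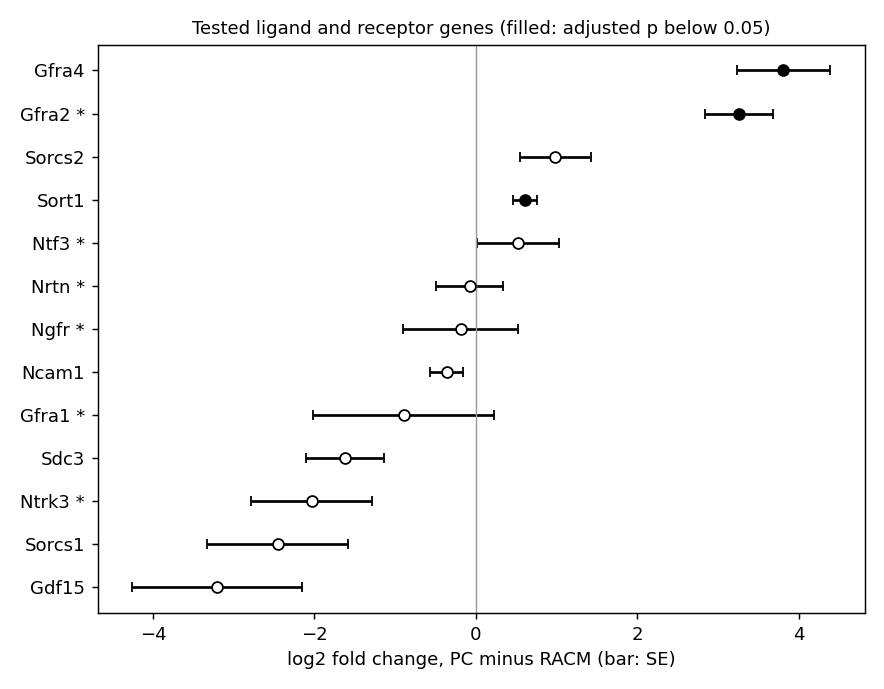
Log2 fold change, PC minus RACM, with its SE for the 13 tested genes among the 9 members (asterisk) and the list of other ligands and receptors. Filled points passed the edgeR test: Gfra4 (3.81), Gfra2 (3.26) and Sort1 (0.61).

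Per kilobase Gfra2 was first of the 9 genes in PC and second in RACM. In PC the order was Gfra2, Nrtn, Ntf3, Ngfr, Ntrk3, Bdnf, Gfra1, Gdnf and Ret. Libraries of neighbours did not overlap between Gfra2 and Nrtn, between Nrtn and Ntf3, or between Ngfr and Ntrk3, and overlapped for the other neighbours. In RACM the order was Nrtn, Gfra2, Ntf3, Ngfr, Ntrk3, Gfra1, Gdnf, Bdnf and Ret, where only Nrtn stood clear of its neighbour. These orders, and the shares that follow, depend on the exon length, which was 30170 bases for Ntrk3 and 1023 for Nrtn. Without that division Ntrk3 had the highest mean of the 9 genes in RACM. It was 15.3 ± 15.2 CPM, against 9.97 ± 6.27 CPM for Gfra2 and 8.32 ± 1.44 CPM for Nrtn (SD, n = 3 each). Gfra2 made up 70.5%, 76.0% and 61.5% of the summed level per kilobase of the 9 genes in PC, against 8.41%, 19.2% and 25.6% in RACM. Its mean level exceeded that of 91.7% of the genes tested in PC and of 47.7% in RACM, while Ret exceeded 0.644% in PC and 0.211% in RACM.

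The genes whose pattern over the 6 libraries was most like that of Gfra2 were Cachd1, S1pr3 and Bmpr1b. Likeness was the root mean square difference between log2 CPM values centred on each gene's mean, which was 0.168, 0.215 and 0.264 for these genes. Cachd1, related to subunits of calcium channels, averaged 47.9 ± 2.17 CPM in PC, against 5.74 ± 3.24 CPM in RACM. S1pr3, a receptor for sphingosine-1-phosphate, averaged 198 ± 14.5 CPM in PC, against 18.2 ± 8.72 CPM in RACM, and Bmpr1b, a BMP receptor, averaged 2.89 ± 0.50 CPM in PC, against 0.288 ± 0.316 CPM in RACM (SD, n = 3 each). Cachd1 and S1pr3 were called (edgeR adjusted p = 0.00246 and 5.25e-04). Bmpr1b did not pass (0.0766), but passed with no filter (0.0153), with DESeq2 (0.00581) and with the replicate block (0.0484). The 3 genes were chosen on these same libraries, so their difference between cell types is a description.

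Genes that act with these receptors inside the cell or in the making of their ligands were mostly not called. Over 5 lists with 107 genes, 85 were tested, 5 were higher and 5 lower, against 3.69% and 3.57% of all genes tested. With the replicate block 7 were higher and 13 lower, against 5.96% and 5.60% of all genes. The median log2 fold change over the 85 genes was -0.24, against 0.01 over all genes tested. Leaving out RACM p2 brought the calls to 4, and leaving out RACM p4, or the p4 library of each cell type, to 6.

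Among 33 tested adaptors and early effectors of Trk and RET receptors, 1 was higher and none lower (2 higher and 3 lower with the replicate block), with a median log2 fold change of -0.09. The called gene was Lrig1, which encodes a membrane protein that restrains receptor kinases, RET included. It was at 32.6, 52.4 and 44.1 CPM in PC, against 16.3, 22.7 and 19.2 CPM in RACM, and the log2 fold change was 1.15 ± 0.23 (edgeR adjusted p = 0.0206). Leaving out PC p2, RACM p4 or RACM p2 ended the call (adjusted p = 0.0576, 0.0539 and 0.0513), as did leaving out the p4 library of each cell type (0.0971). Ptpn11, a phosphatase that carries signals from such receptors, averaged 284 ± 45.3 CPM in PC, against 162 ± 45.2 CPM in RACM and did not pass (edgeR adjusted p = 0.0610), but passed with the replicate block (adjusted p = 0.00705), with DESeq2, limma-voom, no filter or the stricter filter, and without RACM p0 (from 0.00687 to 0.0487).

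Of 16 tested partners of the p75 receptor, 1 was higher and none lower. This was Tnfrsf19, which encodes TROY, a relative of p75, at 91.1, 84.1 and 79.6 CPM in PC, against 43.7, 33.3 and 22.4 CPM in RACM. Its log2 fold change was 1.36 ± 0.24 (edgeR adjusted p = 0.0116). Leaving out RACM p2 or PC p0 ended the call (adjusted p = 0.0518 and 0.0506). Ripk2, a kinase that binds p75, had a log2 fold change of -0.89 ± 0.35 and did not pass (edgeR adjusted p = 0.180). The median of this list was -0.12 on the log2 scale.

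Of 9 tested genes of the processing of neurotrophin precursors, 1 was higher and none lower (1 higher and 3 lower with the replicate block), with a median log2 fold change of -0.85. Furin, a protease that cuts precursors of many secreted proteins, neurotrophins included, was at 194, 188 and 156 CPM in PC, against 77.5, 61.6 and 61.7 CPM in RACM. The groups did not overlap, and the log2 fold change was 1.42 ± 0.17 (edgeR adjusted p = 0.00174). Plat, the gene of tissue plasminogen activator, averaged 3.18 ± 2.22 CPM in PC, against 12.6 ± 7.99 CPM in RACM and did not pass (edgeR adjusted p = 0.120), but passed with the replicate block (adjusted p = 0.0154), with DESeq2 (0.0160) and with no filter (0.00572).

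Of 20 tested genes known to lie downstream of RET or Trk receptors in other tissues, 5 were lower in PC and none higher, and the median log2 fold change was -0.94. In 10 of the 20 all PC libraries lay below all RACM libraries, where 13.4% of all genes tested did so. Etv1, a transcription factor, was at 54.2, 59.2 and 60.1 CPM in PC, against 137, 116 and 115 CPM in RACM (log2 fold change -1.08 ± 0.15, edgeR adjusted p = 0.00410). Mmp14, a matrix protease of the cell surface, was at 24.1, 22.5 and 21.6 CPM in PC, against 55.2, 92.5 and 127 CPM in RACM (-2.01 ± 0.28, adjusted p = 0.00415). Mmp14 is known from fibroblasts, whose summed markers in RACM are given above and whose part in its level was not tested.

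The other 3 called genes of this list, named after their values were seen, dampen signalling through ERK below many receptor kinases, not only RET and Trk receptors. Spry4 was at 3.85, 0.396 and 2.60 CPM in PC, against 15.96, 19.9 and 27.0 CPM in RACM (edgeR adjusted p = 0.0195). Dusp6, a phosphatase of ERK, averaged 15.9 ± 6.08 CPM in PC, against 37.1 ± 3.60 CPM in RACM (adjusted p = 0.0341), and Spred1 averaged 23.2 ± 2.26 CPM in PC, against 43.6 ± 8.73 CPM in RACM (SD, n = 3 each; adjusted p = 0.0302). The list had 2 calls when PC p4, RACM p2 or the p4 library of each cell type was left out, and 3 when RACM p4 was. The call of Spry4 ended when RACM p2 or PC p4 was left out (adjusted p = 0.0593 and 0.0511) or both p4 libraries were (0.0689), that of Dusp6 without any 1 library but PC p0 (from 0.0590 to 0.1), and that of Spred1 without any 1 library but RACM p0 (from 0.0592 to 0.108). Egr1 and Fos, early genes that many stimuli switch on, had log2 fold changes of -0.24 and -0.13 and did not pass (edgeR adjusted p = 0.682 and 0.723).

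**Figure D5:**
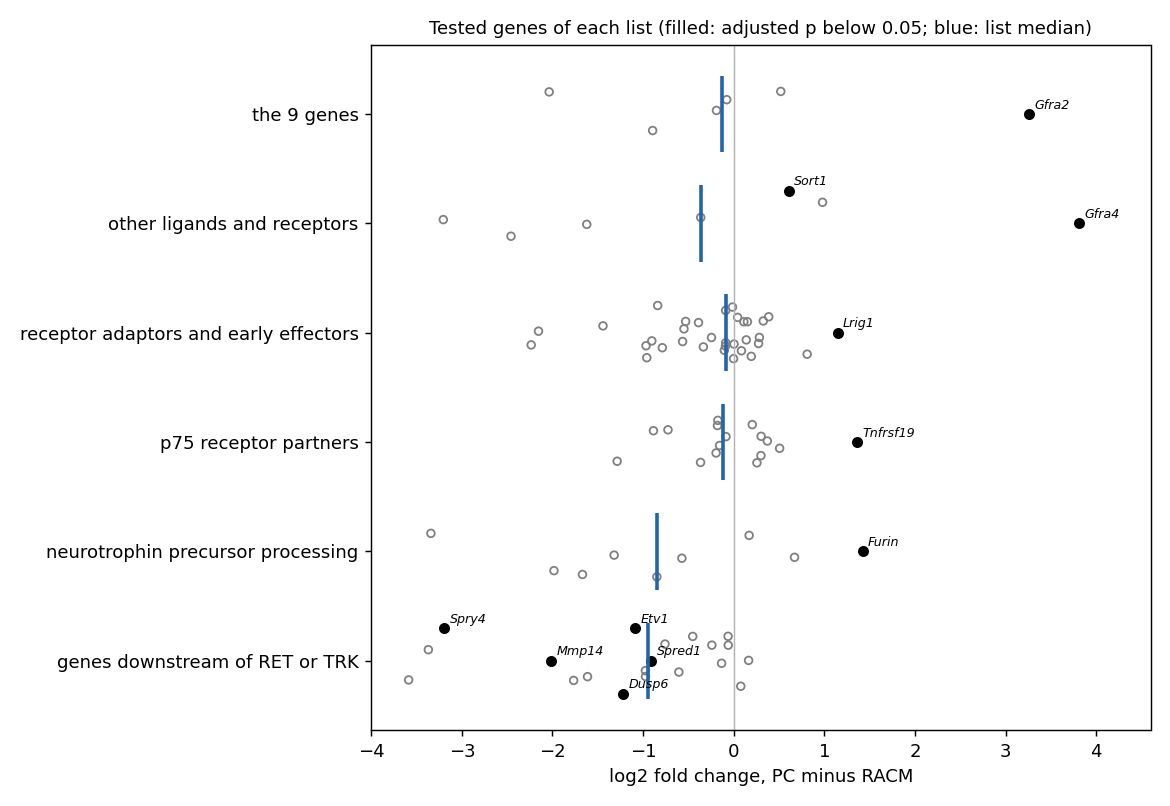
Log2 fold change, PC minus RACM, of each tested gene of the 9 members and of the 5 pathway lists, with called genes filled and named and each list's median as a blue line. Each of the upper lists has 1 or 2 called genes, all on the right, and 5 called genes lie on the left among those downstream of RET or Trk receptors.

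Markers of autonomic neurons, in which Ret and several of the other receptor genes are known to be active, were mixed. Leaving out genes of the pathway lists, 5 of 20 listed genes were higher in PC (7 tested), namely Dbh, Chrna3, Chrnb4, Uchl1 and Snhg11, and the summed list was at 234 to 276 CPM in PC and 26.3 to 34.3 CPM in RACM. Dbh, an enzyme of noradrenaline synthesis, had a mean of 42.4 CPM in PC and 14.9 CPM in RACM. The 2 other tested genes were not called: Elavl4 had 159 counts in PC and 208 in RACM, and Tubb3 42 in PC and 36 in RACM. The rest of the list did not pass the filter, among them Stmn2 with 14 counts in PC and 9 in RACM, Prph with 0 in PC and 13 in RACM, Chat with 1 in PC and 0 in RACM, and Slc18a3 with 0 in all libraries. The part of neurons in the levels of the 9 genes was not tested. Of 10 markers of Schwann cells and glia, leaving out Ngfr and Gfra3, 1 was lower (Mbp) and none higher, with sums from 28.4 to 29.3 CPM in PC and from 60.0 to 79.3 CPM in RACM. Most of the gap between these sums was Mbp, which averaged 11.5 CPM in PC and 50.5 CPM in RACM. The median log2 fold change of the list was -0.24.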

How the data were processed

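Per the file headers, the authors counted fragments over mm10 exons with featureCounts 2.0.1, and the deposited values are raw counts per gene, without strand and without an option for multi-mapping reads. The submitters' processing notes name Trimmomatic, HISAT2 and edgeR and give no versions. Per the labels' protocols, the RNA went through Ovation amplification and paired 100-bp sequencing. Intervals (95%, exact) and floors of 3 counts therefore cover counting error only. Of the series, 7 samples of ATAC-seq are not used here.

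The 9 members and the gene lists were chosen with earlier results of these data known, and no list was tested as a set. Symbols were found for 55141 of 55487 IDs. The filter was filterByExpr on cell type (count 10, total 15), which kept 18015 genes. The main test was the edgeR 4.0.16 quasi-likelihood test on TMM-scaled counts in R 4.3.3, with p-values adjusted by Benjamini-Hochberg over all genes kept and called under 0.05. The SE is the log2 fold change over the square root of F. No permutation test is given, as 3 libraries against 3 allow none under 0.1. The text names each member, the genes of the list of other ligands and receptors (some are not reported here), the 2 genes of smallest p in every other list with the first call of the other sign, and the 3 genes most like a called member. Spry4, Spred1, Dusp6, Egr1 and Fos fall outside that rule and were named after their values were seen. The edgeR, DESeq2 and limma-voom steps were also run on counts simulated from the fitted dispersions. That run did not cover the filter, the replicate block or fits lacking a library.

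Same-numbered PC and RACM libraries deviated together, with correlations over genes of 0.156 (p0), 0.234 (p2) and 0.237 (p4). All exceed 0.1, so the replicate block takes the numbers as pairs, which rests on the data and on no label. The main test and all other settings did not pair the libraries. Over all genes the main test called 1309, against 2082 with the block. Other settings were RLE or upper-quartile scaling, no filter, a 5 CPM filter, a replicate block, DESeq2 1.42.0, limma-voom (limma 3.58.1), and fits lacking 1 library or both p4 libraries, which kept the same genes.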

Additional observations from a re-analysis of the deposited data

How the results depend on the processing

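Over all genes, 1309 were called, against 2339 with no filter, 2082 with the replicate block, 2304 with DESeq2, 799 without both p4 libraries and from 545 to 1393 with 1 library left out. Of the members 1 was called, and 2 with no filter or DESeq2 and from 1 to 2 with 1 library left out, the other being Ntrk3. Its log2 fold change of -2.04 became -2.04 with no filter and -2.06 with DESeq2, past the threshold in both, and lay from -2.59 to -0.85 with 1 library left out. Of the pathway genes 10 were called, against 22 with no filter, 20 with the replicate block, 17 with DESeq2, 6 without both p4 libraries and from 4 to 11 with 1 library left out. The log2 fold change of Nrtn turned sign (0.12, 0.15 and 0.03) without PC p0, PC p2 or RACM p4, within a range from -0.63 to 0.15, and that of Ngfr (0.25 and 0.15) without PC p0 or RACM p2, within -0.93 to 0.25. The cause of these changes was not tested. The replicate block changed no call of a member. Scaling moved the median gene by at most 0.05 on the log2 scale. Bdnf, Gdnf and Ret, with at most 28 counts in any library, are limited by depth.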
